A study of Mus musculus with 3 samples.

Results

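The expression of 10 genes of amino acid and one-carbon synthesis was followed in macrophages given 1 of 3 fatty acids. The set was Asns, Phgdh, Psat1, Psph, Shmt2, Mthfd2, Aldh18a1, Pycr1, Gpt2 and Cth, and a probe set was taken as a gene's own where the platform annotation gave that gene's symbol and no other. By that rule 9 of the 10 genes were measured, on 12 of the 35556 probe sets of the array, and they are 9 of 18820 genes measured in all. The values of Pycr1 were not analysed here. The cells were RAW264.7, a mouse macrophage line from a virus-induced tumour, so the arrays compare cultures of 1 line and not animals. A culture received palmitate, elaidate or oleate at 500 µM for 6 hours, coupled to fatty acid-free albumin at a ratio of 2 and prepared in the same way from ethanol and potassium hydroxide, and each culture gave 1 array. Palmitate is a saturated fatty acid, oleate is a longer fatty acid with a cis double bond, and elaidate is the trans isomer of oleate. No array of cells without fatty acid and no replicate array was analysed here, so every difference below is between 2 arrays, carries no error or p-value, and is relative to another fatty acid.

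The enzymes belong to connected routes. Phgdh, Psat1 and Psph act in that order to make serine from an intermediate of glycolysis, Shmt2 splits serine in mitochondria into glycine and a carbon unit carried on folate, and Mthfd2 oxidises that unit for use in nucleotide synthesis. Aldh18a1 and Pycr1 make proline from glutamate, Asns makes asparagine from aspartate, Gpt2 makes alanine from pyruvate in mitochondria, and Cth makes cysteine from cystathionine. In mammalian cells many of these genes are known targets of ATF4, a transcription factor whose protein is made when the integrated stress response slows general translation. ATF4 binds, with C/EBP proteins, to a composite element with the core TGATGNAA.

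The 250 bases before the RefSeq start site (build GRCm38.p6) were searched for 9 of the 10 genes, all but Cth. The core TGATGNAA, searched on both strands, was found before the start of Asns and Pycr1 and occurred in 3.45% of all 32851 promoter windows of that length. The cyclic AMP response element TGACGTCA, also searched on both strands, was in none of the 9 genes and in 1.55% of all windows. The last 150 bases before the start are shown for the 2 genes with a match, in capitals, and for the 3 genes with large differences between arrays and no match. The match in Asns lies 23 to 16 bases before the start, and the human gene is known to carry an ATF4-binding element with this core near its start. The match in Pycr1 lies 103 to 96 bases before the start.
Asns, chr6:7693210-7693359, minus strand: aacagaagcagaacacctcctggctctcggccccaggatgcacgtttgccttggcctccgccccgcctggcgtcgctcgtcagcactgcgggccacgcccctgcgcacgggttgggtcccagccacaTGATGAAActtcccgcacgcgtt
Pycr1, chr11:120643749-120643898, minus strand: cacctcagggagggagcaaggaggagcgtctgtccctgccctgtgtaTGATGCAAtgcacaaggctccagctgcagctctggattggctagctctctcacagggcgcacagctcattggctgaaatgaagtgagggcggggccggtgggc
Gpt2, chr8:85492426-85492575, plus strand: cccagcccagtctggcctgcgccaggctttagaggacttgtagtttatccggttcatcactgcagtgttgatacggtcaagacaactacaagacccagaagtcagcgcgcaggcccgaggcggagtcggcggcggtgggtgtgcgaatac
Aldh18a1, chr19:40588464-40588613, minus strand: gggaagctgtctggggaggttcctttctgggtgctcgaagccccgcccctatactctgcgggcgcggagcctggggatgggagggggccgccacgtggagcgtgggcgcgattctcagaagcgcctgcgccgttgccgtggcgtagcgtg
Mthfd2, chr6:83317605-83317754, minus strand: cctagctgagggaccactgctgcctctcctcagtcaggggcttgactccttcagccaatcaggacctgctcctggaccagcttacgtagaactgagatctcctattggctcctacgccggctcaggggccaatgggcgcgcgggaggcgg
A match says that these letters stand in the window, and the absence of one says nothing of sites elsewhere in the gene.

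Expression was highest on the palmitate array for 7 of the 9 measured enzymes, and these 7 passed the filter on low values. Of the 9410 genes past it, 2910 were higher with palmitate than with oleate and 2630 higher with palmitate than with elaidate. Genes higher than on both other arrays were not counted. For 6 of the 7 enzymes, Cth, Gpt2, Aldh18a1, Asns, Mthfd2 and Psat1, the elaidate array lay between palmitate and oleate. Shmt2 was higher on the palmitate array only, Psph had the same value on all 3 arrays, and Phgdh lay below the filter. The order palmitate, elaidate, oleate from high to low was held by 6 of the 8 enzymes past the filter on low values, beside 13.1% of the 9410 genes past it. That count describes a list chosen with earlier results of these data known, and is no test. To pass, a gene's mean log2 value had to reach 4.14, which is the median over every gene measured, and Phgdh was the measured enzyme below it.

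**Figure D1:**
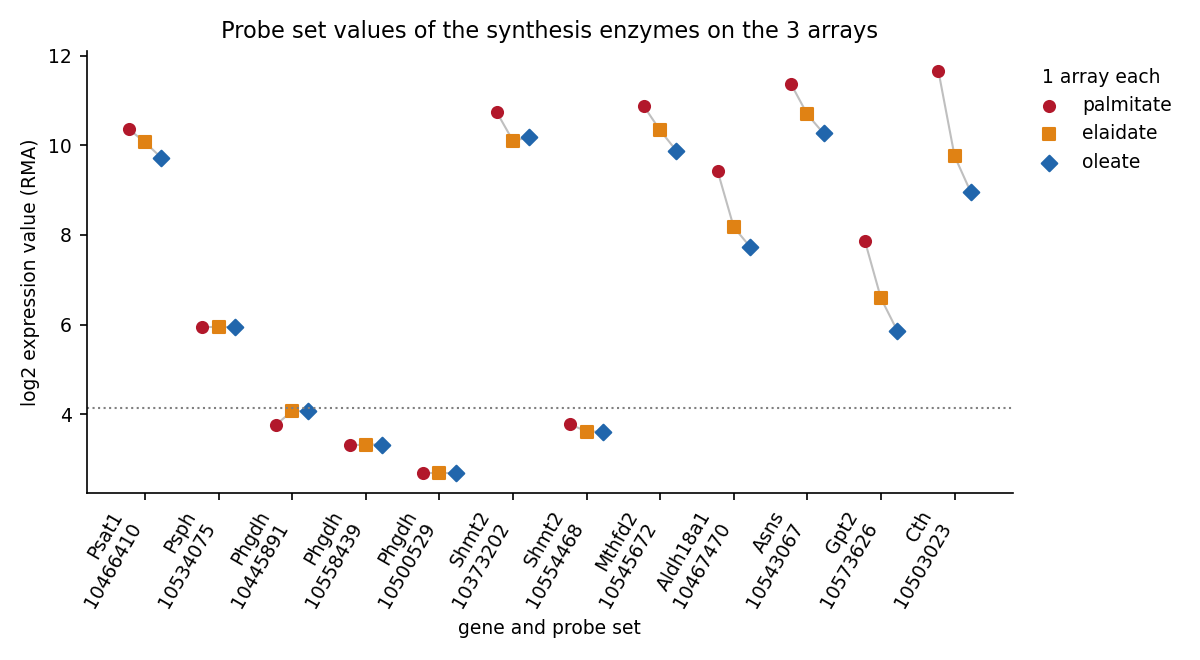
Each group of 3 linked points is a probe set of a synthesis enzyme, and the vertical axis is its log2 expression value on the palmitate (circle), elaidate (square) and oleate (diamond) array; the dotted line marks the filter at 4.14. The points step down from palmitate over elaidate to oleate for Psat1, Mthfd2, Aldh18a1, Asns, Gpt2 and Cth, and lie level for Psph.

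Cth, of cysteine synthesis, and Gpt2, of alanine synthesis, held the greatest differences among the enzymes. Cth, the cystathionine gamma-lyase of the transsulfuration route (probe set 10503023), had log2 values of 11.66 with palmitate, 9.76 with elaidate and 8.95 with oleate. The difference was 2.70 for palmitate minus oleate, or 6.51-fold, and ranked 14 from the top among the 9410 genes. Palmitate exceeded elaidate by 1.90 (3.73-fold), and elaidate exceeded oleate by 0.80 (1.74-fold), so the trans isomer stood apart from the cis one by less than the saturated fatty acid stood apart from either. Gpt2, the mitochondrial alanine aminotransferase (probe set 10573626), had log2 values of 7.88 with palmitate, 6.59 with elaidate and 5.87 with oleate. Its differences were 2.01 for palmitate minus oleate (4.02-fold), 0.72 for elaidate minus oleate (1.64-fold) and 1.29 for palmitate minus elaidate (2.44-fold). Gpt2 and Cth were the enzymes at least 1.5-fold higher with elaidate than with oleate.

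Aldh18a1, of proline synthesis, and Asns, of asparagine synthesis, came next for palmitate minus oleate. Aldh18a1, which carries out the opening steps from glutamate to proline (probe set 10467470), had log2 values of 9.43 with palmitate, 8.17 with elaidate and 7.74 with oleate. Palmitate minus oleate was 1.69 (3.22-fold), elaidate minus oleate 0.43 (1.35-fold) and palmitate minus elaidate 1.25 (2.39-fold). Most of the span of Aldh18a1 lay between palmitate and elaidate. Asns, the asparagine synthetase whose promoter match is printed above (probe set 10543067), had log2 values of 11.36 with palmitate, 10.69 with elaidate and 10.26 with oleate. Its differences were 1.10 for palmitate minus oleate (2.14-fold), 0.42 for elaidate minus oleate (1.34-fold) and 0.67 for palmitate minus elaidate (1.59-fold). Asns and Aldh18a1 had nearly the same difference between elaidate and oleate, while between palmitate and elaidate that of Aldh18a1 was larger.

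The mitochondrial folate enzymes differed less between palmitate and either other fatty acid. Between elaidate and oleate the difference of Mthfd2 was slightly above those of Aldh18a1 and Asns. Mthfd2, a dehydrogenase and cyclohydrolase of the mitochondrial folate route (probe set 10545672), had log2 values of 10.87 with palmitate, 10.33 with elaidate and 9.88 with oleate. Palmitate minus oleate was 0.99 (1.98-fold), just short of the 2-fold limit, with 0.45 for elaidate minus oleate and 0.54 for palmitate minus elaidate. Shmt2, the mitochondrial serine hydroxymethyltransferase, had 2 probe sets, which did not read alike. Probe set 10373202 had log2 values of 10.74 with palmitate, 10.10 with elaidate and 10.17 with oleate. This gave 0.56 for palmitate minus oleate, 0.64 for palmitate minus elaidate and -0.08 for elaidate minus oleate. Probe set 10554468 lay below the filter value at 3.78, 3.62 and 3.62 in the same order of arrays, and differed by 0.16 for palmitate minus oleate. The mean of both, used in the counts, was 0.36 for palmitate minus oleate, so the brighter probe set gave a value more than 1.5 times the mean. Shmt2 was the enzyme past the filter with a lower value for elaidate than for oleate.

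The serine route itself was uneven. Psat1, the aminotransferase of the route (probe set 10466410), had log2 values of 10.36 with palmitate, 10.06 with elaidate and 9.73 with oleate. The differences were 0.63 for palmitate minus oleate (1.55-fold), 0.34 for elaidate minus oleate (1.26-fold) and 0.30 for palmitate minus elaidate (1.23-fold), nearly equal steps. Psph, the phosphatase that releases serine (probe set 10534075), was listed at 5.95 on all 3 arrays. Equal values, to within 1e-06, are common in this table and held for 32.3% of genes past the filter between palmitate and oleate. Phgdh, which commits carbon to serine, had 3 probe sets that all lay below the filter value on every array. Probe set 10445891 read 3.77 with palmitate and 4.07 with both elaidate and oleate, probe set 10558439 read 3.31 with palmitate and 3.33 with both others, and probe set 10500529 read 2.69 on all 3 arrays. Which of these probe sets, if any, reads the expressed Phgdh gene was not settled here, so the values do not show whether Phgdh expression was low or alike in the 3 cultures.

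The enzymes were chosen with earlier results of these data known, so their counts below describe the list and are no test of it. Set against all genes, 4 of the 8 enzymes past the filter were at least 2-fold higher with palmitate than with oleate (Cth, Gpt2, Aldh18a1 and Asns), where 1.65% of 9410 genes were. None was 2-fold lower, where 1.22% of genes were. The median difference over the 8 enzymes was 1.04 on the log2 scale, or 2.06-fold, and over the 9 measured enzymes 0.99, beside 0 over all genes past the filter. For palmitate minus elaidate 3 of 8 (Cth, Gpt2 and Aldh18a1) were at least 2-fold higher and none lower, beside 0.978% and 0.871% of genes, with a median of 0.60. For elaidate minus oleate no enzyme was 2-fold different in either direction, beside 0.106% of genes higher and 0% lower, and the median was 0.43. At a limit of 1.5-fold, 6 of 8 enzymes (Psat1 and Mthfd2 in addition) were higher with palmitate than with oleate and none lower, beside 4.57% and 4.73% of genes. At the same limit 2 of 8, Cth and Gpt2, were higher with elaidate than with oleate and none lower, beside 0.723% and 0.0638%. For palmitate against elaidate 4 of 8 were 1.5-fold higher, with Asns joining the 3, and none lower, beside 3.18% and 4.43%. The comparisons share arrays, so their values are not independent of each other.

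**Figure D2:**
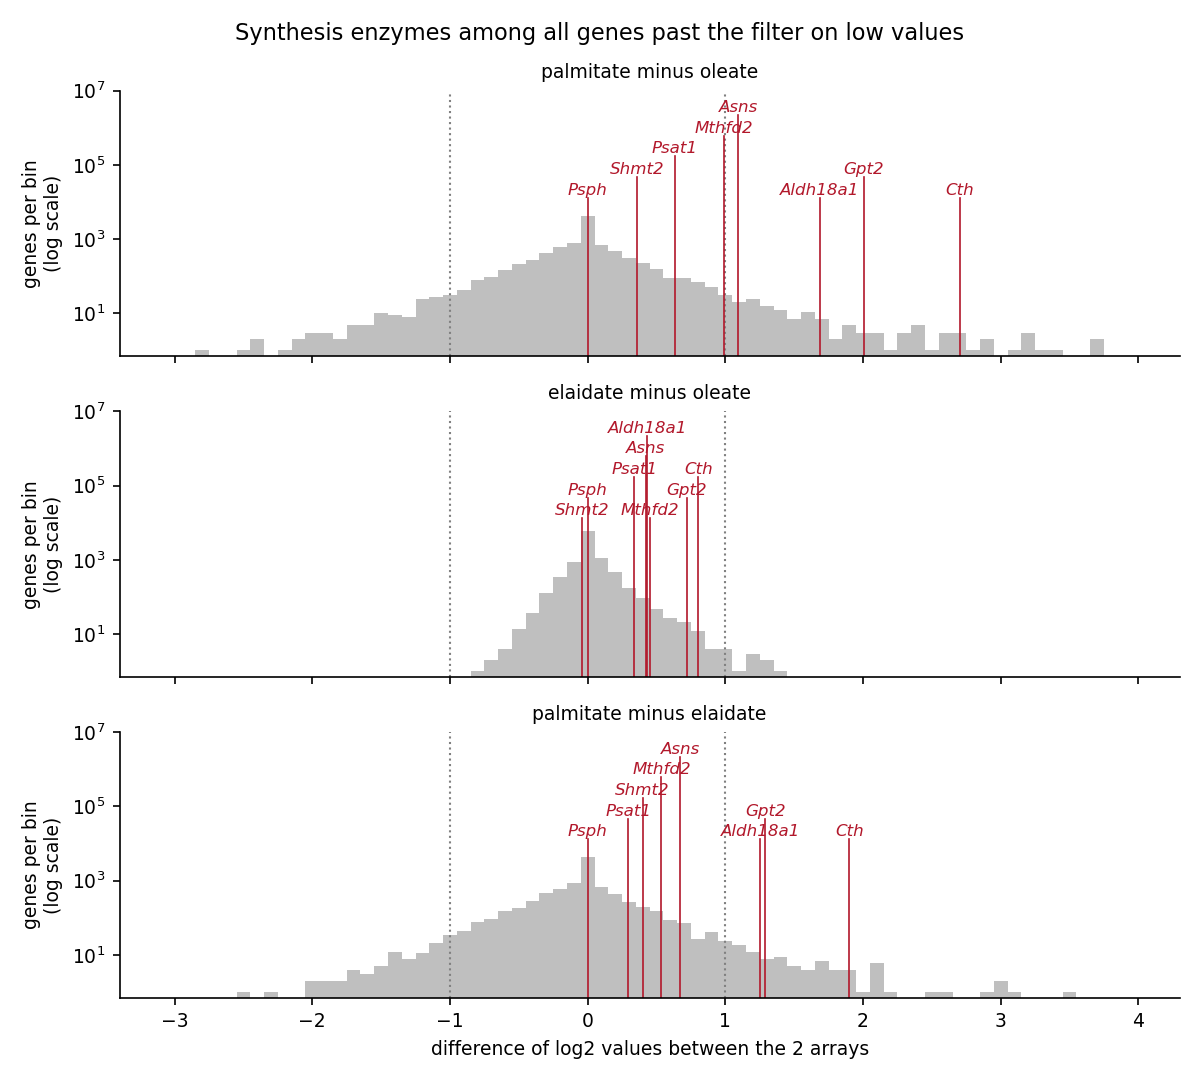
Grey bars count the 9410 genes past the filter (log scale) by their difference of log2 values in each of the 3 comparisons, and red lines mark where 8 synthesis enzymes lie; the height of a red line carries no value. Dotted lines stand at 2-fold. Cth, Gpt2, Aldh18a1 and Asns lie past 2-fold for palmitate minus oleate, and no enzyme does for elaidate minus oleate.

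Enzymes that do related work in another compartment, or a neighbouring step, were read beside these. Shmt1, Mthfd1 and Gpt had equal values on all arrays, and such equal values are common here, as stated for Psph. Shmt1, the cytosolic counterpart of Shmt2, was listed at 6.63 on all 3 arrays, and Mthfd1, the cytosolic folate enzyme, at 7.96 on all 3. Mthfd1l, which makes formate in mitochondria, resembled the brighter Shmt2 probe set: its log2 values were 8.49 with palmitate, 7.80 with elaidate and 7.83 with oleate. That is 0.66 for palmitate minus oleate, 0.70 for palmitate minus elaidate and -0.04 for elaidate minus oleate. Mthfd2l, the paralogue of Mthfd2, differed by -0.03 for palmitate minus oleate over 2 probe sets and was equal between elaidate and oleate. Gpt, the cytosolic alanine aminotransferase, was listed at 3.36 on every array, below the filter. Cbs, the step before Cth, also lay below it, at 3.39 with palmitate, 3.36 with elaidate and 3.39 with oleate, and at such dim values neither gene can show whether its expression differed.

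**Figure D3:**
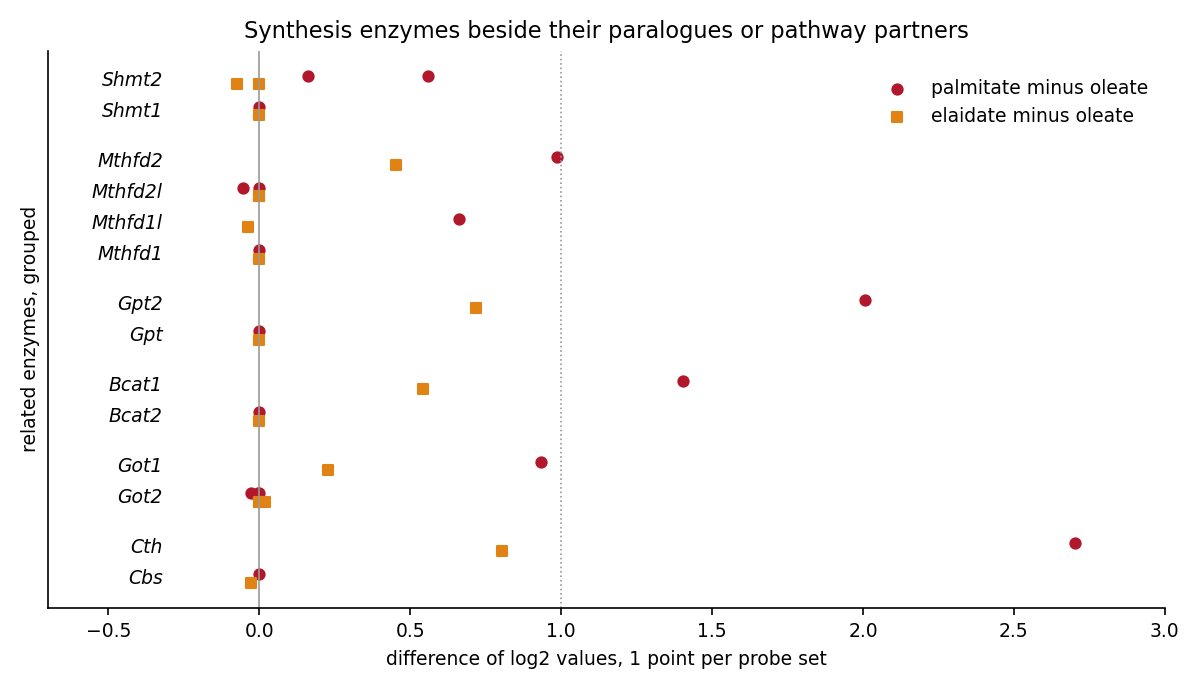
Each point is a probe set, placed by its difference of log2 values for palmitate minus oleate (circle) or elaidate minus oleate (square); related enzymes are grouped, and the dotted line stands at 2-fold. Shmt2, Mthfd2, Mthfd1l, Gpt2, Bcat1, Got1 and Cth lie to the right for palmitate minus oleate, while Shmt1, Mthfd2l, Mthfd1, Gpt, Bcat2, Got2 and Cbs lie at or near 0.

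In the wider pathways 2-fold differences were about as rare as among all genes past the filter. Of 80 further genes of serine, folate, purine, proline, aspartate, glutamine, methionine and arginine metabolism, 65 were measured and 50 passed the filter. Set against oleate, palmitate gave 21 higher values, 17 lower values and 12 equal values, and their median was 0. Over all 9410 genes past the filter 2910 were higher, 3459 lower and 3041 equal, also with a median of 0. Of the 50 genes 1 was at least 2-fold higher and none 2-fold lower, beside 1.65% and 1.22% of all genes. That gene was Bcat1, the cytosolic branched-chain aminotransferase, with log2 values of 10.16 with palmitate, 9.30 with elaidate and 8.76 with oleate, a difference of 1.40 (2.64-fold) for palmitate minus oleate. Its mitochondrial counterpart Bcat2 was listed at 7.51 on all 3 arrays. For elaidate minus oleate 19 of the 50 were higher, 9 lower and 22 equal, beside 2968, 2290 and 4152 of all 9410 genes. For palmitate minus elaidate 15 were higher, 20 lower and 15 equal, beside 2630, 3565 and 3215 of all genes. None of the 50 was 2-fold different in either comparison. Among all genes 0.106% were 2-fold higher and 0% lower for elaidate minus oleate, and 0.978% and 0.871% for palmitate minus elaidate.

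By route, the 6 further serine and glycine genes held 1 higher, 2 lower and 3 equal values; the higher one was Dld, a subunit of the glycine cleavage system shared with other dehydrogenases, at 0.87 for palmitate minus oleate. Of 10 further folate genes 6 were higher, 3 lower and 1 equal, at a median of 0.13. Of 10 purine synthesis genes, which use folate-borne carbon, 4 were higher and 6 lower, at a median of -0.02. Pfas, a purine synthesis enzyme, was the lowest of the purine genes at -0.43, followed by Adssl1 at -0.26. Among 4 further proline and ornithine genes P4ha1, a collagen prolyl hydroxylase subunit, was furthest from 0 at -0.20. Glul, the glutamine synthetase gene, went the other way from the enzymes, with log2 values of 6.40 with palmitate, 7.19 with elaidate and 7.39 with oleate. That is -0.99 for palmitate minus oleate, and its 2 probe sets gave -1.15 and -0.82. For elaidate minus oleate the first of these probe sets gave -0.39, and the second had equal values. Glud1, glutamate dehydrogenase, differed by -0.08 for palmitate minus oleate. Of 8 further methionine and cysteine genes 3 were higher, 2 lower and 3 equal, and Ahcyl1 was furthest from 0 at 0.49, and in the arginine and polyamine list Sat1, which acetylates polyamines, stood at 0.90 and the spermidine synthase gene Srm at 0.15.

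**Figure D4:**
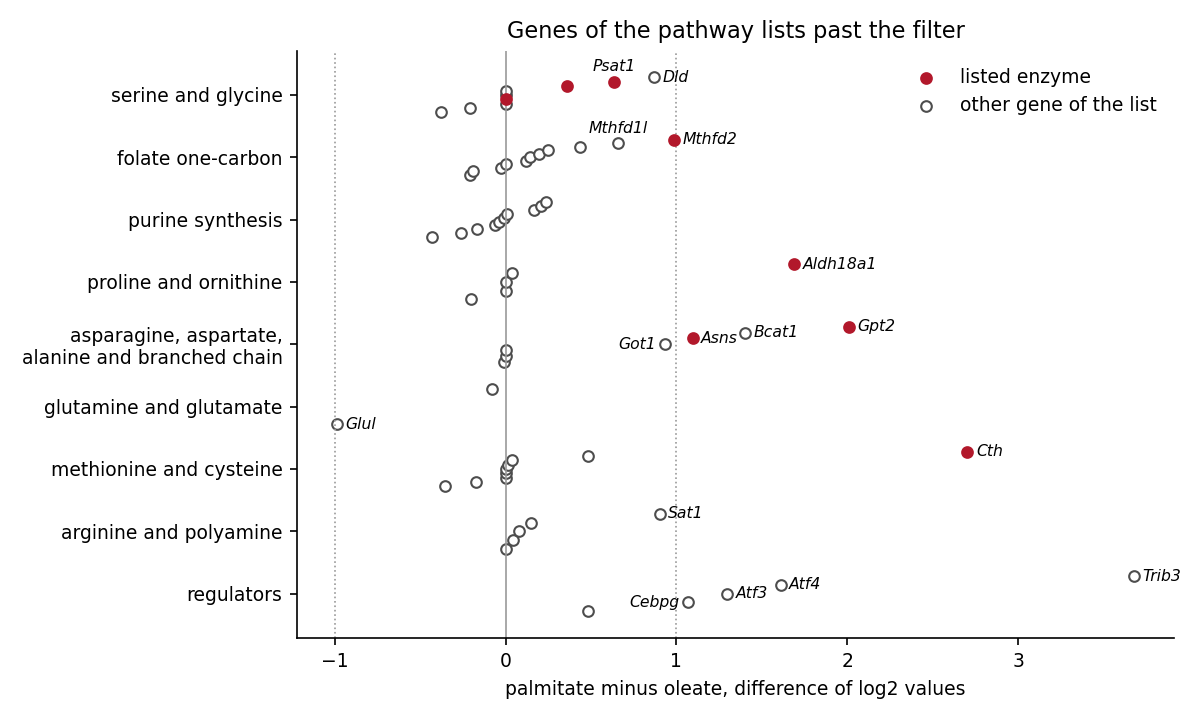
Each point is a gene past the filter, placed by its palmitate minus oleate difference of log2 values and grouped by pathway; filled points are the synthesis enzymes and open points the other genes of each list. Dotted lines stand at 2-fold. Filled points reach from 0 for Psph to 2.70 for Cth, while most open points outside the regulators lie close to 0.

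Regulators of the ATF4 pathway were read from the same arrays. Atf4 had log2 values of 9.95 with palmitate, 9.07 with elaidate and 8.34 with oleate, a difference of 1.61 for palmitate minus oleate and 0.73 for elaidate minus oleate. Trib3, a pseudokinase that restrains ATF4, stood at 9.71 with palmitate, 6.75 with elaidate and 6.03 with oleate. Cebpg, a C/EBP partner of ATF4, differed by 1.07 for palmitate minus oleate and 0.15 for elaidate minus oleate, and Atf3 by 1.30 and 0.18. Cebpb differed by 0.48 for palmitate minus oleate and -0.13 for elaidate minus oleate. Of the 5 measured regulators 4 were at least 2-fold higher with palmitate than with oleate, beside 1.65% of all genes. Like the enzymes, the regulators were chosen with earlier results of these data known. Ddit3 and Atf5 were not analysed here.

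Likeness to the enzymes was measured as the distance of a gene's differences, palmitate minus oleate and elaidate minus oleate, from the enzymes' medians of 1.04 and 0.43. Over these 3 arrays the nearest named genes were the linker histone gene H1f2, the transcription factor gene Nfe2l1, Arfgap3, the splicing kinase gene Clk4 and Zfp945. H1f2 lay at 1.02 and 0.41, at a distance of 0.030, and Zfp945 at 1.11 and 0.41, at a distance of 0.074. With 3 arrays such a match describes these values only.

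The identity of the cells was checked on 10 macrophage markers, all measured and past the filter. Set against oleate, palmitate gave 8 lower and 2 equal values, where 3459 of all 9410 genes past the filter were lower and 3041 equal, with the apoptotic cell receptor gene Mertk lowest at -2.10, and their log2 values summed to 96.5 with palmitate, 100.4 with elaidate and 101.5 with oleate. Of 22 measured markers of fibroblasts, adipocytes, hepatocytes, T cells, B cells and osteoclasts, 4 passed the filter, beside 9410 of all 18820 genes. For palmitate minus oleate 4 of the 22 were higher and 1 lower, and the differences ran from -0.16 to 0.49. The highest was the osteoclast marker Dcstamp, at 5.70 with palmitate, 5.74 with elaidate and 5.21 with oleate. Summed, the 22 gave 72.8 with palmitate, 72.8 with elaidate and 72.1 with oleate. The part of these markers in the values of the enzymes was not tested. In such bulk RNA, fewer cells of a state and less RNA per cell cannot be told apart.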

How the data were processed

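RNA of RAW264.7 cultures was labelled with an Affymetrix whole-transcript kit, per the labels' protocols, and gave 1 array per fatty acid. The authors deposited 1 log2 value for each probe set and array, summarised with RMA per the submitters' processing notes, and these were used unchanged. Version and genome build are not given in the sources used here. Precision is limited by the number of arrays.

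Of 35556 probe sets, the supplied platform annotation gave 1 gene symbol to 21218, several to 1881 and none to 12457. Symbols were brought up to date by gene identifier through RefSeq for 21185. The mean was taken over probe sets of a gene. Groups followed the fatty acid in the labels. With 1 array per group no test was run. Differences of log2 values were taken, and genes at least 2-fold different among the 9410 past the filter were counted. The counting step was checked on simulated data with folds set away from the 2-fold limit. That check covers the code and not the error of calls near the limit.

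The enzymes and the pathway lists were chosen with earlier results of these data known. Named were all enzymes, their paralogues, 7 regulators where measured, any other pathway gene at least 2-fold different, the 2 genes of each list, the enzymes counted among them, furthest from 0 for palmitate minus oleate, and the 5 genes nearest to the enzymes' medians. Bcat2, Got1, Got2 and Sfxn1 were added after their values were seen. Alternatives were other filters, the probe set with the highest mean, centring, cyclic loess (limma 3.58.1, R 4.3.3), limits of 1.5-fold and 3-fold, the mean in place of the median, and the median without the enzyme furthest from 0. Promoters come from RefSeq, GRCm38.p6. Protein identity of paralogues was planned and not run. Python 3.11.15, pandas 2.3.3 and numpy 2.4.6 were used.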

Additional observations from a re-analysis of the deposited data

How the results depend on the processing

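No enzyme past 2-fold changed sign under any alternative. Called counts moved by over 1.5 times only with the limit: at 1.5-fold 2 enzymes were higher with elaidate than with oleate, against none at 2-fold, and at 3-fold 1 enzyme was higher with palmitate than with elaidate, against 3. The median for palmitate minus oleate, 1.04, was 0.99 without the filter and 0.99 without Cth, the enzyme furthest from 0, and so below 2-fold. The mean in place of the median gave 1.18 for palmitate minus oleate, and 0.79 with elaidate subtracted from palmitate. With the brighter Shmt2 probe set alone, Shmt2 stood at 0.56 (palmitate minus oleate) and 0.64 when elaidate was subtracted instead. The other 133 recomputed values of single enzymes moved by under 0.1 (log2) and kept their side of 2-fold, and so did the other 66 medians and counts, with counts within 1.5 times. Most of these single values could not move. A filter leaves an enzyme's own difference unchanged, and the choice of probe set can alter only Shmt2. For the other enzymes only centring and cyclic loess could change them. The median of all genes moved furthest with centring, to -0.040 for palmitate minus oleate. No paired analysis was possible because each fatty acid has 1 array. For the same reason no replicate could be left out. Signal over background cannot be read from these values, which limits statements on Phgdh, Gpt and Cbs.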

Other observations

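Some further genes close to these routes were singled out after their values were seen. Got1, the cytosolic aspartate aminotransferase, had log2 values of 11.25 with palmitate, 10.54 with elaidate and 10.31 with oleate, a difference of 0.93 for palmitate minus oleate. Its mitochondrial counterpart Got2 differed by -0.01 over 3 probe sets. Sfxn1, a mitochondrial serine carrier, was lower, at 9.19 with palmitate and 9.57 with both elaidate and oleate, a difference of -0.38.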
